A study of Mus musculus with 74 samples.

Results

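The genes described here are 10 of the 55487 genes in the RNA table of a mouse adipocyte study, and all belong to the calcium-handling and contractile machinery of striated muscle. Ryr1 and Trdn act in calcium release, Atp2a1 and Atp2a2 in calcium uptake, Acta1, Ttn, Mylpf and Tnnt3 in the sarcomere, Ckm in energy supply and Mb in oxygen storage. They were selected on measured values: Trdn and Ryr1 had high levels in the light phase in RNA of inguinal white adipose tissue (WAT), so the WAT time course is given below as a description with no test. All 10 genes passed the filter on low counts in each fit. The adipocytes came from mice with Adiponectin-Cre and the NuTRAP allele. In these mice Cre, driven by the adiponectin promoter, switches on fluorescent tags on the nuclei and ribosomes of adipocytes. Every RNA and ATAC group carried both alleles.

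Ribosome-bound RNA, isolated with anti-GFP antibody, was sequenced from brown adipose tissue (BAT, 17 libraries) and from inguinal WAT (18 libraries). Sampling covered 6 Zeitgeber times (ZT, hours after lights on) at ZT1, 5, 9, 13, 17 and 21, with 3 libraries per depot and time and 2 for BAT at ZT17. Open chromatin was measured by ATAC-seq in sorted nuclei, with 18 libraries per depot. BMAL1 binding came from 2 ChIP libraries of inguinal WAT of C57BL6J mice at ZT4. ZT13, ZT17 and ZT21 are called dark by convention, since the light schedule is not stated in the sources used here, nor are sex, age, diet or feeding. The labels do not say whether replicates came from separate animals, so the p-values measure the spread between libraries, which may be technical.

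In striated muscle, depolarisation opens the ryanodine receptor RYR1 in the sarcoplasmic reticulum, and released calcium binds troponin and lets myosin pull on actin. SERCA pumps, encoded by Atp2a1 and Atp2a2, return the calcium at the cost of ATP, which creatine kinase buffers. In thermogenic adipocytes, calcium cycling between ryanodine receptors and SERCA2 has been described as a heat source that does not need UCP1. The other ryanodine receptor genes, Ryr2 and Ryr3, did not pass the filter on low counts in any fit here. The libraries are bulk samples, so fewer cells of a type and less RNA per cell cannot be told apart.

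The total count per RNA library lay between 4980147 and 46274438 for BAT, against 1301522 to 6481154 for WAT, so low counts are less precise in WAT. In 3 WAT libraries (ZT5 replicate 3, ZT9 replicate 3 and ZT17 replicate 2), ribosomal loci took 66.0%, 60.7% and 53.0% of counts. The 7 adipocyte markers were all detected in every library of both depots, and their summed level in CPM (counts scaled to a common library total) was 39505 ± 10698 in BAT, against 34801 ± 23537 in WAT (SD over 17 BAT and 18 WAT libraries). Fabp4 leads this sum, with a mean log2 CPM of 15.1 in edgeR, against 9.87 for Lipe, the next highest. By gene, the log2 differences, BAT over WAT, ran from 0.11 for Cidec to 1.75 for Pparg. The 5 brown adipocyte markers summed to 5298 ± 1510 CPM in BAT, against 304 ± 182 CPM in WAT, in the direction of the depot labels.

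Promoter sequences of RefSeq (GRCm38.p6, 250 bases before to 50 after the start) were found for 7 of the 10 genes, not for Trdn, Atp2a2 or Tnnt3. Windows of 3 genes that differ in the open chromatin described below are printed 5′ to 3′ on the gene's strand. The first is a Mb window at chr15:77022738-77023037 on the minus strand, with the stretch inside a BAT accessibility peak in capitals. Mb has more than 1 RefSeq window, and the one at its upstream start, chr15:77050619-77050918, overlaps no peak assigned to Mb in either depot. The second is the Acta1 window at chr8:123894726-123895025 on the minus strand, with its TATA box TATAAA in capitals. The Acta1 accessibility peak of either depot lies outside this window, in intron 1. The third is the Ryr1 window at chr7:29125102-29125401 on the minus strand, where no accessibility peak was assigned in either depot.
Mb: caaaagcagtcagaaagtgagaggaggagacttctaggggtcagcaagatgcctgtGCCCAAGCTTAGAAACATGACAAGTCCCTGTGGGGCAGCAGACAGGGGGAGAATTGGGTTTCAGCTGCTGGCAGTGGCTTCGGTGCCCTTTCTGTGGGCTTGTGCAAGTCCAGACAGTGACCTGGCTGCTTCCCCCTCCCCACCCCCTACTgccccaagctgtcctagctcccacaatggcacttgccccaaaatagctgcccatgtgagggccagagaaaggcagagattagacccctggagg
Acta1: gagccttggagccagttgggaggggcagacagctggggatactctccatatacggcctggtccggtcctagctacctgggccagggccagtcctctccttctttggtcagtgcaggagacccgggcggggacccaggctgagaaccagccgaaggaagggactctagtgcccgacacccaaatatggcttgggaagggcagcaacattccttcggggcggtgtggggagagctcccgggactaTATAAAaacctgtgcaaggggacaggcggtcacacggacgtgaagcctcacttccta
Ryr1: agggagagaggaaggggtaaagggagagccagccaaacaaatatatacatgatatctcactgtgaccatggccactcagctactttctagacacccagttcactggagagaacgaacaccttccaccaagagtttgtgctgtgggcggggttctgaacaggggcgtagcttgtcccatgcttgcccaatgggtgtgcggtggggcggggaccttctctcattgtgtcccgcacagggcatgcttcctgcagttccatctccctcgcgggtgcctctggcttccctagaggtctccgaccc
The Ryr1 window holds no TATAAA and no E-box, either in the general form CANNTG or as CACGTG, on either strand. Over all 32851 promoter windows of this length, the share with TATAAA was 13.6%. The general E-box was found in 72.3% of windows, and its form CACGTG, which the general one includes, in 7.15%. A match is a description of letters, and nothing about a factor is drawn from it.

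Between the depots, the 10 genes went in opposite directions. Tnnt3, Mylpf, Acta1 and Mb were higher in BAT and Ttn was lower in BAT, while Ryr1 and Trdn had lower fitted values in BAT. Ryr1 and Trdn were chosen on high values in these same WAT libraries, so their depot difference is given as a description with no p. By edgeR's quasi-likelihood test with time as a factor, 5 of the other 8 genes were called at an adjusted p under 0.05 and at least 2-fold, against 47.3% of the 10999 genes tested. Of these, 4 were higher in BAT, where 23.1% of all genes were, and 1 was lower in BAT, where 24.2% were. The median log2 difference, BAT over WAT, was 0.76 over these 8 genes and 0.26 over all 10, against 0.04 over all genes. Gene coordinates are those of RefSeq on GRCm38.p6.

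Ryr1 (ENSMUSG00000030592, chr7:29003340-29125179), the calcium release channel, was at 0.177 CPM in its lowest BAT library, 1.14 at the median and 10.6 in its highest, against 0.278, 15.4 and 125 CPM in WAT. In 11 of the 18 WAT libraries Ryr1 was above the highest BAT library. BAT over WAT, the fitted Ryr1 difference was -3.32 ± 0.57 on the log2 scale (SE), with no test. No source used here says whether counting used strand, so reads of overlapping genes cannot be told apart. In RefSeq, 7 of the 10 genes overlap another gene: Ryr1 overlaps the lncRNAs Gm38979 and Gm26604 and Mir1963, Trdn overlaps the lncRNA D830005E20Rik and 3 pseudogenes, and Atp2a1 overlaps the protein-coding gene Rabep2. Mylpf overlaps the protein-coding gene Septin1, Mb overlaps the protein-coding gene Apol6, Tnnt3 overlaps Prr33 and Ckm overlaps A930016O22Rik.

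Trdn (ENSMUSG00000019787, chr10:33083483-33476709), which encodes triadin, the protein that ties the release channel to calsequestrin, ran from 1.14 through a median of 3.50 to 29.5 CPM in BAT. In WAT the same gene ran from 0 through 19.4 to 244 CPM, and 7 WAT libraries exceeded every BAT library. The single library at 0 counts, WAT ZT21 replicate 2, allows up to 0.893 CPM for Trdn (3 counts, counting error only). The fitted log2 difference of Trdn was -2.16 ± 0.60 (SE), with no test.

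The uptake pumps showed no 2-fold difference. Atp2a1 (ENSMUSG00000030730, chr7:126445858-126463103), the fast-fibre pump SERCA1, had a mean of 3.82 ± 4.49 CPM in BAT, against 3.71 ± 3.59 CPM in WAT (SD over 17 and 18 libraries), and the groups overlapped. Its log2 difference was 0.03 ± 0.57 (edgeR adjusted p = 0.970), and the sign turned under other scalings, at -0.071 with DESeq2 size factors. Atp2a2 (ENSMUSG00000029467, chr5:122453513-122502225), SERCA2, is the pump made in many tissues. Its SD was the smallest of the 10 genes relative to the mean in both depots, with 9.12 ± 1.82 CPM in BAT, against 13.4 ± 5.52 CPM in WAT. Atp2a2 was lower in BAT by less than 2-fold (-0.53 ± 0.16, edgeR adjusted p = 0.00305). Reads of these paralogs can be split by the counting, so their levels carry that uncertainty.

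Among sarcomere genes, Tnnt3 (ENSMUSG00000061723, chr7:142498771-142516213), fast skeletal troponin T, was at 6.47 CPM in the lowest, 32.8 in the median and 166 in the highest BAT library, against 0, 6.48 and 30.7 CPM in WAT. Its log2 difference was 2.05 ± 0.49 (edgeR adjusted p = 0.000303), and 9 of 17 BAT libraries lay above the WAT range. Mylpf (ENSMUSG00000030672, chr7:127208848-127214288), the fast regulatory myosin light chain, averaged 8.58 ± 8.85 CPM in BAT, against 1.99 ± 2.29 CPM in WAT, and was at 0 in 4 WAT libraries. Mylpf differed by 2.00 ± 0.51 (edgeR adjusted p = 0.000635).

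Acta1 (ENSMUSG00000031972, chr8:123891758-123894775), skeletal muscle actin, ran from 4.62 through 16.5 to 113 CPM in BAT and from 2.45 through 12.6 to 35.9 CPM in WAT, and 4 BAT libraries lay above the WAT range. Acta1 differed by 1.02 ± 0.38 (edgeR adjusted p = 0.0173), just past the 2-fold limit, and the call was lost in 16 alternatives. Without BAT ZT13 replicate 3 the Acta1 difference was 0.66 (edgeR adjusted p = 0.0676), and without BAT ZT1 replicate 3 it was 0.78 (edgeR adjusted p = 0.0755). Leaving out each of 11 other libraries (BAT ZT5 replicate 3, ZT21 replicates 2 and 3; WAT ZT1 replicate 2, ZT5 replicate 2, ZT13 replicates 1, 2 and 3, ZT17 replicate 2 and ZT21 replicates 2 and 3) brought it below 2-fold, at 0.88 to 0.99. Reads may also be shared with the paralogous actins.

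Ttn (ENSMUSG00000051747, chr2:76703980-76982557), titin, the spring of the sarcomere, went in the direction of the release genes and not of the other sarcomere genes. It ran from 0.429 through 2.89 to 21.9 CPM in BAT and from 0 through 19.7 to 114 CPM in WAT, with 8 WAT libraries above the BAT range. Its log2 difference was -2.41 ± 0.52 (edgeR adjusted p = 8.69e-05).

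Mb (ENSMUSG00000018893, chr15:77015487-77050668), myoglobin, had the most BAT libraries outside the WAT range of the 10 genes. It was at 12.1 CPM in the lowest, 19.5 in the median and 29.9 in the highest BAT library, against 0, 1.32 and 15.4 CPM in WAT. Of the 17 BAT libraries 14 were above every WAT library, and the difference was 3.11 ± 0.39 (edgeR adjusted p = 4.48e-09). Ckm (ENSMUSG00000030399, chr7:19411094-19421583), muscle creatine kinase, averaged 44.9 ± 54.2 CPM in BAT, against 35.7 ± 62.9 CPM in WAT. Ckm differed by 0.50 ± 0.55 (edgeR adjusted p = 0.414), so a depot difference was not detectable against this spread.

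**Figure D1:**
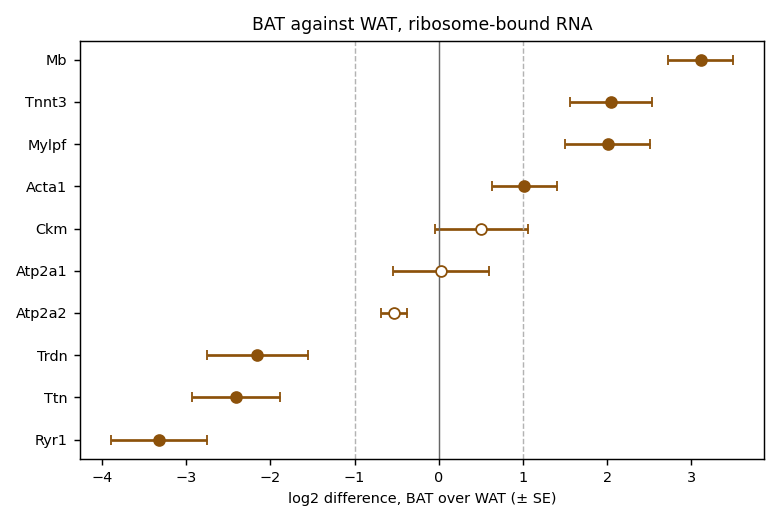
Log2 difference of each gene, BAT over WAT (horizontal axis), with 1 row per gene, bars giving ± SE from the edgeR fit over 35 libraries and dashed lines marking 2-fold. Mb lies at 3.11 and Ryr1 at -3.32, while Atp2a1 lies at 0.03.

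Other muscle genes were also compared between the depots. Over all 10999 genes tested, 23.1% were called higher and 24.2% lower in BAT. Of 15 other skeletal muscle genes tested, 8 were higher in BAT and 0 lower, with a median of 1.12. Actn2, the Z-disc actinin, was higher by 3.37 ± 0.38 (edgeR adjusted p = 5.99e-10), Tnnc2 by 1.78 ± 0.49 (edgeR adjusted p = 0.00143) and Tnni2 by 1.68 ± 0.49 (edgeR adjusted p = 0.0026). Tnnc2 and Tnni2 encode fast troponin subunits. Of 6 excitation-contraction coupling genes tested, 3 were higher and 1 was lower in BAT, and the first 3 by size were Jsrp1 at 1.30 ± 0.53 (edgeR adjusted p = 0.0268), Jph1 at 1.25 ± 0.37 (edgeR adjusted p = 0.00311) and Asph at -1.11 ± 0.15 (edgeR adjusted p = 1.67e-08). Jph1 encodes a junctophilin that holds the reticulum to the plasma membrane.

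Of 8 other genes of calcium release, uptake and entry tested, 3 were lower and 2 were higher in BAT, beside 24.2% and 23.1% of all genes. The log2 difference of the pump genes was -5.10 ± 0.31 for Atp2a3, -4.64 ± 0.22 for Atp2b4 and -4.15 ± 0.18 for Atp2b1 (edgeR adjusted p = 3.80e-17, 3.35e-20 and 3.71e-21).

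Markers of other cell types moved with depot too. The 6 fibroblast markers summed to 24.1 ± 12.9 CPM in BAT, against 543 ± 272 CPM in WAT, and the 5 smooth muscle markers to 3.52 ± 1.24 CPM in BAT, against 51.7 ± 38.6 CPM in WAT. The 5 macrophage markers summed to 9.31 ± 1.62 CPM in BAT, against 97.4 ± 49.8 CPM in WAT, and the 4 endothelial markers to 6.80 ± 6.07 CPM in BAT, against 49.1 ± 27.3 CPM in WAT. The sum of the 24 other skeletal muscle genes ran from 188 to 1620 CPM in BAT and from 41.7 to 585 CPM in WAT. Of those 24 genes, 22 to 24 were detected in each BAT library and 11 to 24 in each WAT library. The myogenic factor genes Myod1 and Myog were at 0 in 15 and 13 of the 17 BAT libraries and in all 18 WAT libraries. Mef2c, the only 1 of the 6 genes of that list to be tested, was present in both depots. It was at 3.27 ± 2.45 CPM in BAT, against 94.7 ± 44.2 CPM in WAT (log2 difference -4.91 ± 0.27, edgeR adjusted p = 3.10e-18). RNA composition differed too. The 9 mitochondrially encoded genes summed to 3504 ± 4517 CPM in BAT, against 117428 ± 73200 CPM in WAT. All genes with a symbol starting in mt-, a wider set than these 9, took 0.126% to 2.25% of counts in BAT libraries, against 0.685% to 27.6% in WAT libraries. The 3 ribosomal RNA loci summed to 18964 ± 14137 CPM in BAT, against 372030 ± 429044 CPM in WAT. With ribosomal and mitochondrial genes left out of the counts, the calls of Mb, Tnnt3, Mylpf, Acta1 and Ttn were kept in the same direction. The part of the other cell types in the depot differences was not tested.

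Per unit of transcript length, in the authors' deposited TPM, the order of levels differed between the depots. In BAT the order was Tnnt3 (42.3 ± 41.0 TPM, SD over 17 libraries), Ckm (30.2 ± 31.4), Mylpf (19.7 ± 20.1), Mb (17.8 ± 4.81), Acta1 (16.0 ± 14.8), Trdn (6.44 ± 5.83), Atp2a1 (4.22 ± 4.78), Atp2a2 (1.94 ± 0.509), Ryr1 (0.150 ± 0.149) and Ttn (0.146 ± 0.132). Of these neighbours, Atp2a2 and Ryr1 alone differed by more than the larger SD. In WAT, Trdn led at 49.1 ± 56.5 TPM (SD over 18 libraries), followed by Ckm (24.7 ± 31.7), Tnnt3 (13.3 ± 12.2), Acta1 (8.85 ± 5.69), Mylpf (5.06 ± 6.33), Mb (3.03 ± 3.28), Atp2a1 (2.97 ± 2.92), Atp2a2 (2.86 ± 1.07), Ryr1 (2.05 ± 2.18) and Ttn (0.665 ± 0.678). No neighbours in the WAT order differed by more than their spread. Values not listed in that table belong to libraries with 0 counts and were taken as 0.

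In BAT, no member was called rhythmic. Cosinor fits of a 24 h period gave 0 of 10 calls by edgeR, where 9.17% of 12394 genes were called, 0 at an unadjusted p under 0.05 and 0 by DESeq2. Peak-to-trough sizes (log2) were largest for Ttn (1.25 ± 0.88), Ckm (1.22 ± 0.94), Ryr1 (1.18 ± 0.99) and Trdn (1.15 ± 0.85) and smallest for Atp2a2 (0.17 ± 0.19), with edgeR adjusted p from 0.534 to 0.879. The members' median was 0.86 and that of all genes 0.49, and the errors of the members were large relative to their sizes. In the authors' deposited table, all 10 genes had a q-value of 1 in BAT.

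Dark against light gave 0 of 10 calls in BAT as well, where 1.30% of genes were called. Log2 differences, dark minus light, ran from 0.07 for Atp2a2 to 0.35 for Mylpf, with edgeR adjusted p from 0.789 to 0.974. At an unadjusted p under 0.05 the count was also 0. One library decided their sign: without BAT ZT13 replicate 3, 8 of the 10 genes were lower in dark, by -0.43 to -0.74. Of the lists, 2 of 24 skeletal muscle genes were called rhythmic in BAT, Actn2 (1.38 ± 0.31, peak ZT12.4, edgeR adjusted p = 0.0287) and the intermediate filament gene Des (0.55 ± 0.12, peak ZT14.0, edgeR adjusted p = 0.0255). Of 12 coupling genes 0 were called, and of 8 other calcium genes 1 was, the IP3 receptor gene Itpr2 (1.00 ± 0.22, peak ZT9.25, edgeR adjusted p = 0.0220).

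The values by library show where the BAT spread lies. Trdn in BAT was at 1.21, 1.14 and 7.90 CPM at ZT1, 3.50, 2.08 and 7.30 at ZT5, 6.86, 9.83 and 16.9 at ZT9, 2.71, 1.94 and 29.5 at ZT13, 1.68 and 2.78 at ZT17, and 2.37, 18.7 and 8.39 at ZT21. Acta1 in BAT was at 5.71, 5.58 and 46.7 CPM at ZT1, 23.0, 16.5 and 30.1 at ZT5, 19.2, 15.5 and 30.9 at ZT9, 14.1, 4.62 and 113 at ZT13, 7.16 and 13.5 at ZT17, and 9.07, 57.2 and 50.7 at ZT21. Both genes were highest in the same library, ZT13 replicate 3, and at ZT13 alone Trdn spanned 1.94 to 29.5 CPM, close to its range over all times. Mb in that library stood at 27.3 CPM, inside the range of 12.1 to 29.9 CPM of the other BAT libraries.

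In WAT the time course, on which Trdn and Ryr1 were chosen, is described without a test. Trdn was at 39.9, 1.83 and 29.5 CPM at ZT1, 111, 74.0 and 244 at ZT5, 69.0, 146 and 145 at ZT9, 23.2, 7.73 and 13.4 at ZT13, 15.7, 2.75 and 1.23 at ZT17, and 14.9, 0 and 0.556 at ZT21. Ryr1 was at 19.1, 0.986 and 7.54 CPM at ZT1, 101, 67.7 and 125 at ZT5, 37.3, 68.2 and 92.2 at ZT9, 42.4, 4.74 and 14.7 at ZT13, 13.6, 2.14 and 2.77 at ZT17, and 16.1, 0.893 and 0.278 at ZT21. Every ZT5 and ZT9 library was above every ZT17 and ZT21 library for both genes. All 3 ZT1 libraries lay below every ZT5 and ZT9 library for both genes and overlapped the ZT13 to ZT21 libraries.

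Ttn in WAT was at 40.5, 5.78 and 23.6 CPM at ZT1, 59.5, 45.8 and 114 at ZT5, 76.4, 57.3 and 71.7 at ZT9, 19.2, 11.1 and 6.24 at ZT13, 14.3, 4.89 and 7.07 at ZT17, and 20.3, 1.19 and 0 at ZT21. The dark and light medians were 7.73 and 74.0 CPM for Trdn, 4.74 and 67.7 CPM for Ryr1, 7.07 and 57.3 CPM for Ttn, and 8.26 and 15.8 CPM for Acta1. For Trdn and Ttn, 8 of 9 light libraries lay above all dark libraries, and for Ryr1 5 of 9 did.

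Fitted peaks lay in the light phase for all 10 genes, a count from the contrast used for the choice, beside 55.8% of all 12703 genes tested, called or not. The count was 9 of 10 without WAT ZT5 replicate 3, where the fitted Atp2a2 peak moved to ZT19.8, and without WAT ZT9 replicate 3, where the Ckm peak moved to ZT12.5. Peak-to-trough sizes (log2) were 5.13 ± 0.78 for Trdn, 4.48 ± 0.77 for Ryr1 and 3.61 ± 0.65 for Ttn, with peaks at ZT6.78, ZT7.47 and ZT6.55. Atp2a1 (2.65 ± 1.09), Mb (2.16 ± 1.10), Ckm (1.95 ± 0.90), Tnnt3 (1.92 ± 0.87), Acta1 (1.39 ± 0.53) and Mylpf (0.85 ± 1.14) were smaller, and Atp2a2 had 0.25 ± 0.38. Dark minus light, all 10 were below 0, from -3.27 for Trdn to -0.17 for Atp2a2, as were 55.8% of all genes, called or not. The median difference was -1.24 over the 10 genes and -0.10 over all genes. Without the 3 libraries high in ribosomal loci, the sizes were 4.48 for Trdn, 3.97 for Ryr1 and 3.19 for Ttn, the Ckm peak moved to ZT14.7 with a size of 0.50, and Mb, at a size of 0.73, had a dark minus light difference of 0.02.

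**Figure D2:**
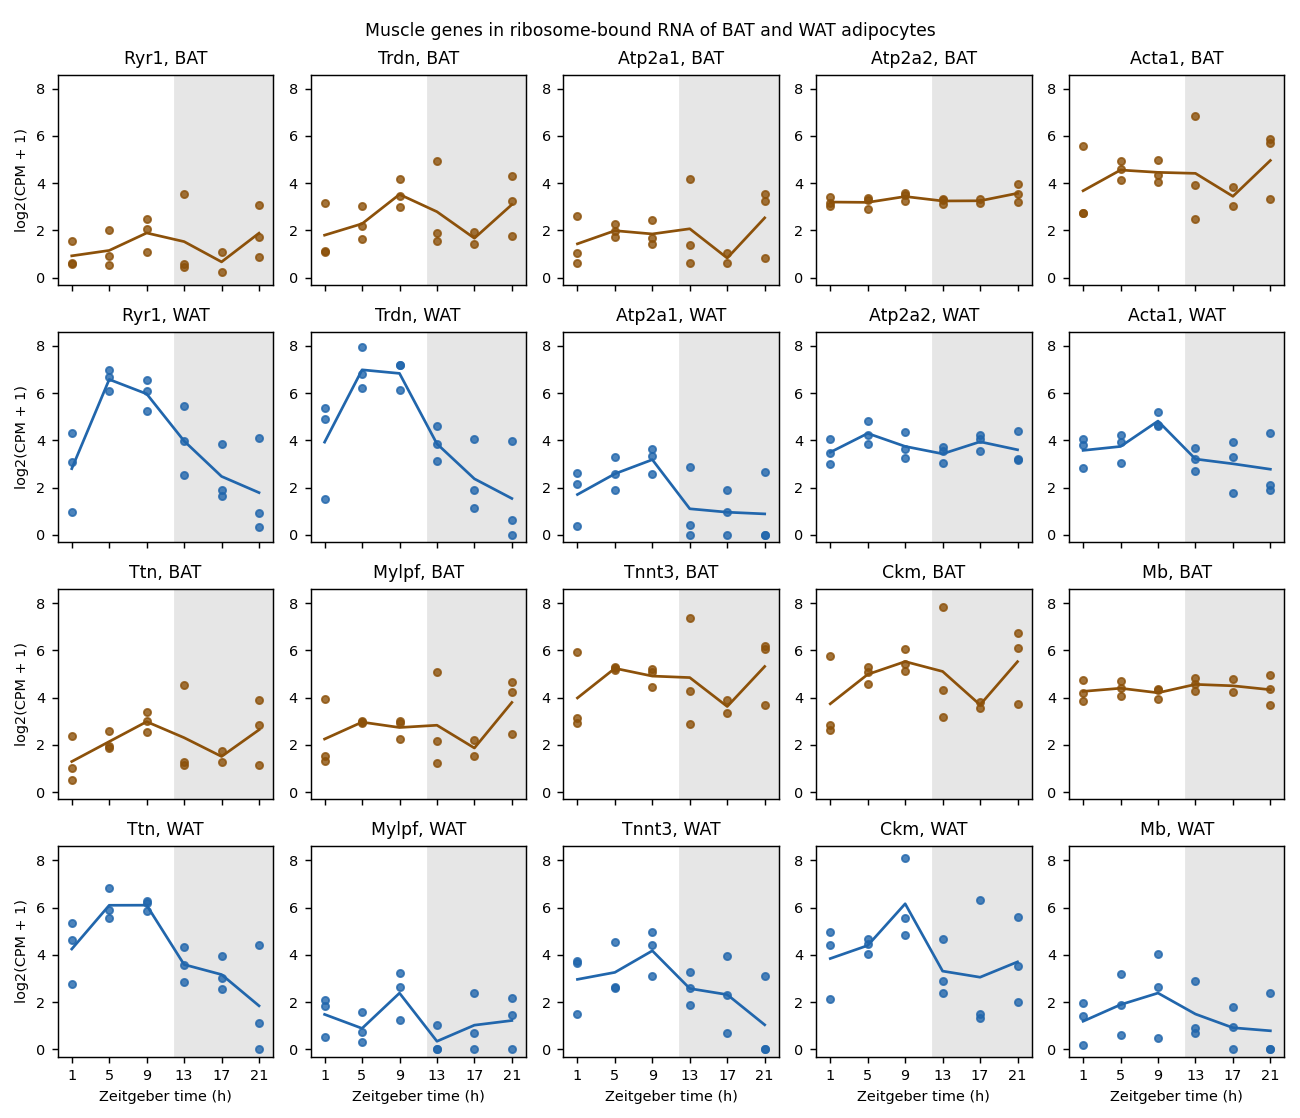
Level (log2(CPM + 1), vertical axis) against Zeitgeber time in hours (horizontal axis) for the 10 genes, in rows of BAT and WAT panels, with 1 point per library, lines through the means and dark times shaded. Trdn and Ryr1 in WAT are high at ZT5 and ZT9 and low at ZT17 and ZT21, while in BAT the ZT13 libraries of Trdn alone span 1.94 to 29.5 CPM.

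Summed levels of other gene groups in WAT differed between dark and light in both directions, without a test. Median sums in dark and light were 105 and 215 CPM for the 24 other skeletal muscle genes, 376 and 625 CPM for fibroblast markers, 23.6 and 67.6 CPM for smooth muscle markers, 60.3 and 119 CPM for macrophage markers and 40.2 and 65.5 CPM for endothelial markers. The skeletal muscle sums ran from 41.7 to 304 CPM in dark and from 87.3 to 585 CPM in light, so the groups overlapped. In the other direction, median sums in dark and light were 35910 and 21375 CPM for the 7 adipocyte markers, 339 and 189 CPM for the 5 brown adipocyte markers and 515 and 490 CPM for the 12 other calcium genes. Fabp4 leads the adipocyte sum. By gene, the log2 differences of the 7 adipocyte markers, dark minus light, ran from 0.04 for Adipoq to 0.89 for Fabp4. For coupling genes the medians were 140 and 149 CPM, and for mitochondrially encoded genes 85217 and 131408 CPM. Their part in the light-phase levels of Trdn and Ryr1 was not tested.

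The release genes and titin also stood in different proportion to Acta1, Mylpf, Tnnt3 and Ckm, given as a description with no test. Ryr1 and Trdn were chosen on high light-phase values in these WAT libraries, so a high WAT ratio follows in part from the choice. The ratio of summed CPM of Ryr1, Trdn and Ttn to that of Acta1, Mylpf, Tnnt3 and Ckm, a split made after the values were seen, ran from 0.0666 to 0.270 in BAT with a median of 0.117. In WAT the ratio ran from 0.135 to 7.77 with a median of 1.05. By time in WAT its median was 0.975 at ZT1, 6.58 at ZT5, 1.93 at ZT9, 1.46 at ZT13, 1 at ZT17 and 0.143 at ZT21. Few counts lie behind the ZT21 ratios, with 3 over 21 in WAT ZT21 replicate 3 and 7 over 52 in replicate 2. All 3 ZT5 libraries, at 5.89 to 7.77, lay far above the BAT range. Trdn per Acta1 had a median of 0.235 in BAT (0.126 to 0.636) and 1.90 in WAT (0 to 13.7).

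Across BAT libraries, 8 of the 10 genes followed the mean log2(CPM + 1) of the 24 other skeletal muscle genes, and no relation was detected for Mb and Atp2a2. Over 17 libraries Pearson's r was 0.98 for Ckm (Spearman's rho 0.99), 0.97 for Acta1 (0.98), 0.97 for Tnnt3 (0.95), 0.96 for Atp2a1 (0.93) and 0.95 for Mylpf (0.94). It was 0.93 for Ttn (0.91), 0.92 for Trdn (0.92) and 0.86 for Ryr1 (0.80). For these 8 the permutation p of r was 1e-05, the smallest that 100000 resamples can give, and 1.25e-05 after Benjamini-Hochberg adjustment over 10 relations. The permutation p of rho for Ryr1 was 0.00017 (adjusted 0.000212). For Atp2a2 r was 0.15 and rho 0.15 (permutation p of r 0.565, adjusted 0.628), and for Mb r was 0.08 and rho 0.03 (permutation p of r 0.755, adjusted 0.755).

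Leaving out the 2 libraries farthest from the median of the list, BAT ZT1 replicate 1 and ZT13 replicate 3, r was 0.98 for Ckm, 0.88 for Trdn and 0.78 for Ryr1, against 0.27 for Atp2a2 and -0.05 for Mb. On deviations from the mean of each time, r was 0.99 for Ckm, 0.94 for Trdn and 0.84 for Ryr1, so the relation also held within times. In WAT, given as a description, r over 18 libraries was 0.85 for Tnnt3, 0.84 for Ckm and Acta1, 0.83 for Mylpf, 0.77 for Ttn, 0.74 for Atp2a1, 0.72 for Trdn, 0.64 for Ryr1, 0.48 for Mb and 0.07 for Atp2a2. All points share library depth with the list.

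**Figure D3:**
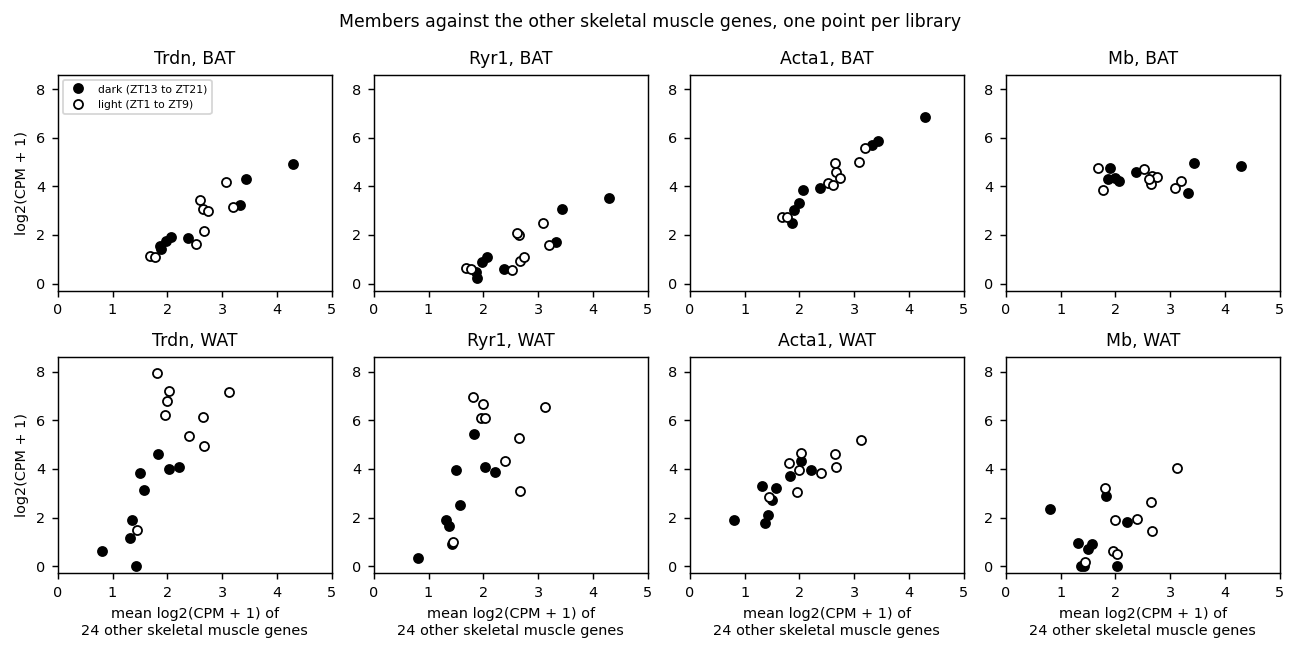
Level of each shown gene (log2(CPM + 1), vertical axis) against the mean log2(CPM + 1) of 24 other skeletal muscle genes (horizontal axis), 1 point per library, with dark libraries filled and light libraries open, BAT above WAT. In BAT, Trdn has r = 0.92 with the list and Mb has r = 0.08.

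The genes most like Trdn in BAT over 17 libraries were Xirp2 (r = 0.98), Nexn (0.97), Ube2c (0.96), Atcayos (0.96) and Gm37759 (0.95), and those most like Ryr1 were Xirp2 (0.96), Nexn (0.95), Gm37759 (0.94), Ampd1 (0.93) and Trim54 (0.93). In WAT over 18 libraries Trdn was again closest to Xirp2 (0.93) and Nexn (0.90), followed by Atcayos (0.83), Foxj2 (0.81) and Myh4 (0.80). Ryr1 in WAT was closest to Nexn (0.89), Xirp2 (0.87), Sh3bgr (0.83), Atcayos (0.81) and Mef2c (0.80). Xirp2 and Nexn encode actin-binding proteins of striated muscle. Acta1 in BAT was closest to A930016O22Rik (0.98), Tpm2 (0.98), Tnnc2 (0.98), Tnni2 (0.97) and Pvalb (0.97), and in WAT to Xirp2 (0.84), Nexn (0.79), Mybpc2 (0.78), Ehf (0.77) and Tcap (0.76). Atp2a2 had other neighbours, Lrp10 (0.87), Orm1 (0.80), Arap2 (0.77), Gpld1 (0.77) and Adamts9 (0.76) in BAT, and Lpcat3 (0.86), Map3k8 (0.76), Osbp (0.74), Atp8b5 (0.71) and Rnd2 (0.70) in WAT. These values are Pearson's r of log2(CPM + 1), given as a description.

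In chromatin of the sorted adipocyte nuclei, open sites were assigned to few of the genes. BAT had 21 peaks at 5 of the 10 genes, with 10 at Atp2a2, 8 at Mb and 1 each at Acta1, Ttn and Mylpf. WAT had 6 peaks at 4 genes, with 2 each at Atp2a2 and Mb and 1 each at Acta1 and Mylpf. Ryr1, Trdn, Atp2a1, Tnnt3 and Ckm had 0 in both depots, and Ttn had 0 in WAT. A peak within 1 kb of a start site was present for 4 of the 10 genes in BAT, where 71.0% of 12394 genes had one and 76.4% of 6918 genes of like level. In WAT it was present for 3 of 10, where 64.5% of 12703 genes had one and 65.6% of 9621 genes of like level. Like level means any gene from the lowest to the highest member mean, 2.33 to 44.9 CPM in BAT and 1.99 to 52.2 CPM in WAT. This wide range takes in most genes tested. The peaks are those the authors called on 1 pooled set per depot, with coordinates on mm10.

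Among the lists, the promoter share was 5 of 24 other skeletal muscle genes in BAT and 4 of 24 in WAT, 3 of 16 coupling genes in each, and 6 of 12 other calcium genes in each. All 7 adipocyte markers had a promoter peak in both depots, and the 5 brown adipocyte markers had one in BAT and 0 of 5 in WAT.

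**Figure D4:**
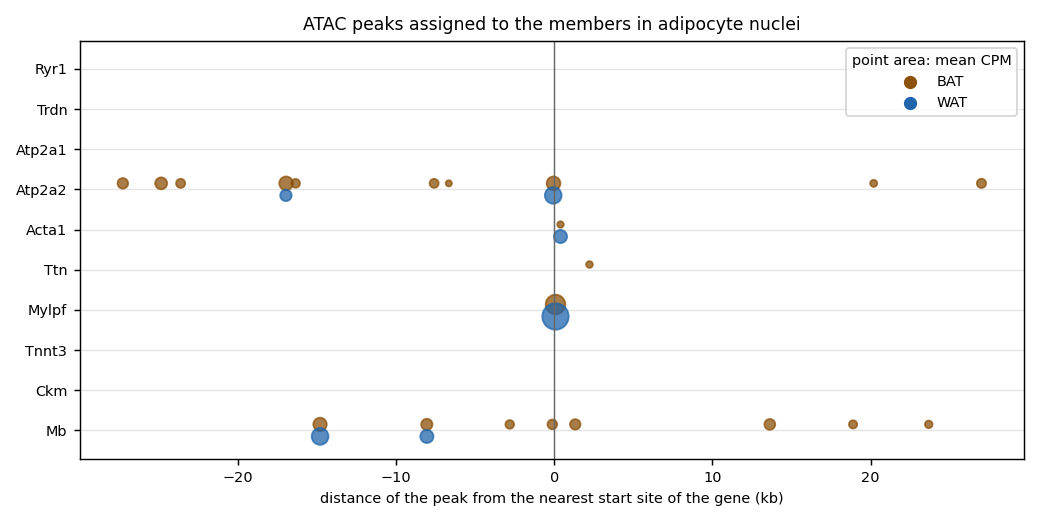
Distance of each accessibility peak from the nearest start site of its gene in kb (horizontal axis) for the 10 genes (rows), with BAT and WAT peaks in separate colours and point area showing mean CPM in peaks. Atp2a2 has 10 BAT peaks and Mb 8, while 5 genes have 0 in both depots.

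The printed Mb promoter window overlaps a BAT peak at chr15:77022831-77022981, at 18.0 ± 5.04 CPM in peaks (SD, n = 18), which was not called rhythmic (edgeR adjusted p = 0.560). No WAT peak was assigned within 1 kb of an Mb start. The Mb peak farthest upstream lies at -14804 bases (BAT) and -14801 bases (WAT) from the more distant upstream Mb start, near chr15:77050668, and not from the start inside the printed window. It was found in both depots, at chr15:77065397-77065547 in BAT and chr15:77065394-77065544 in WAT. This peak is annotated as intergenic and lies between Apol6, which ends at chr15:77057108, and the snRNA gene Gm24753, which begins at chr15:77067791. Its assignment to Mb is that of the deposited annotation, and a link to Mb or to a neighbouring gene was not tested. Acta1 had its peak in its intron 1, at chr8:123894320-123894470 in BAT (8.13 ± 2.30 CPM, edgeR adjusted p = 0.118) and chr8:123894330-123894480 in WAT (33.3 ± 5.20 CPM, edgeR adjusted p = 0.909). ATAC tables were normalized within each depot, so levels are not tested between them. The Mylpf peak at chr7:127208870-127209020 ranked at percentile 98.3 of peak scores in BAT and 99.5 in WAT, but its annotation is the promoter of the neighbouring gene Tbc1d10b. It lies 44 bases from an upstream Mylpf start, by which it was counted above as within 1 kb of a start site. From the RefSeq promoter window of Mylpf found here, at chr7:127211358-127211657, it lies away.

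Rhythmic accessibility was called at 4 of the 21 BAT peaks, against 18.9% of 42572 peaks, a share near the background. An Atp2a2 peak at -16348 bases from the start, chr5:122518500-122518650, had a peak-to-trough size (log2) of 0.78 ± 0.14 with its peak at ZT10.4 (edgeR adjusted p = 0.00205), and another at chr5:122508810-122508960 had 0.71 ± 0.18 at ZT14.1 (edgeR adjusted p = 0.0243). The Ttn intron 1 peak at chr2:76980296-76980446 had 0.55 ± 0.15 at ZT8.50 (edgeR adjusted p = 0.0327), and the Mylpf peak 0.18 ± 0.05 at ZT5.78 (edgeR adjusted p = 0.0280). The Ttn and Mylpf calls were lost without ZT5 replicate 1 and without ZT17 replicate 3, with 2 calls left each time, while 7 peaks were called without ZT5 replicate 3. The Atp2a2 promoter peak itself, at 36.4 ± 3.14 CPM in BAT and 53.7 ± 3.84 CPM in WAT, was not called in either depot (edgeR adjusted p = 0.244 and 0.196).

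The upstream Mb peak was the only 1 of 6 called in WAT, against 15.8% of 25050 peaks. Per library it had 53.1, 68.1 and 68.2 CPM at ZT1, 60.8, 61.7 and 54.7 at ZT5, 63.2, 56.8 and 56.1 at ZT9, 64.3, 54.4 and 46.5 at ZT13, 48.9, 39.9 and 40.5 at ZT17, and 41.9, 48.7 and 47.0 at ZT21. Every light library was above every ZT17 and ZT21 library. The size was 0.47 ± 0.11 with a peak at ZT5.78 (edgeR adjusted p = 0.0194), and the call was lost without WAT ZT17 replicate 3 (0.42, edgeR adjusted p = 0.0509).

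In BAT the same Mb peak had 47.2, 46.3 and 46.0 CPM at ZT1, 36.9, 30.2 and 33.3 at ZT5, 43.7, 34.8 and 38.8 at ZT9, 34.6, 34.9 and 31.5 at ZT13, 31.0, 28.2 and 27.0 at ZT17, and 24.6, 23.4 and 28.9 at ZT21. Its size of 0.52 ± 0.15, with a peak at ZT5.37, just missed the limit (edgeR adjusted p = 0.0502; DESeq2 adjusted p = 0.0221). Mb RNA in BAT had a size of 0.20 ± 0.25 and was not called. Whether RNA and accessibility differ in this was not tested.

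**Figure D5:**
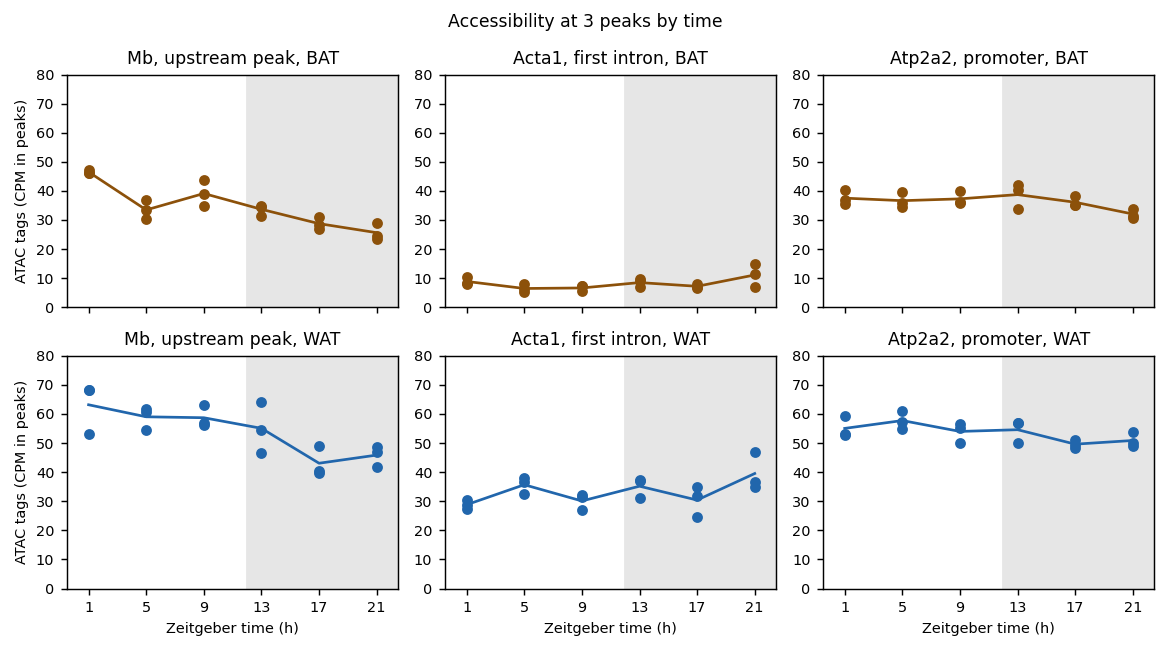
Accessibility (CPM in peaks, vertical axis) against Zeitgeber time in hours (horizontal axis) at 3 peaks, with 1 point per library and lines through the means, in BAT (top) and WAT (bottom). The upstream Mb peak is lower at ZT17 and ZT21 than at ZT1 in both depots.

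BMAL1, the clock transcription factor, had peaks assigned to 2 of the 10 genes among 10368 peaks in inguinal WAT at ZT4, with a single time and no test, where 50.3% of the 12703 genes tested in WAT had an assigned peak. At Atp2a2 a peak at chr5:122502197-122502409, on the promoter, had a HOMER score given by the authors of 7.36 against a median of 6.16 over all peaks, and it overlapped the promoter accessibility peak by 143 bases in BAT and by 150 in WAT. A second Atp2a2 peak, at chr5:122547579-122547791, scored 8.39 and overlapped no accessibility peak assigned to the gene. At Mb a peak at chr15:77065463-77065675 scored 4.96 and overlapped the upstream accessibility peak by 84 bases in BAT and by 81 in WAT. Trdn and Ryr1 had 0 assigned BMAL1 peaks.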

How the data were processed

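Files of 35 RNA, 36 ATAC and 2 BMAL1 ChIP libraries were used, and the groups are depot and Zeitgeber time, per the labels. The 10 members and all gene lists were chosen with earlier results of these data known. The deposited RNA table holds estimated counts per gene that the authors left unnormalized; for this work they were rounded to whole numbers. The authors' TPM and JTK q-value tables were used for levels per length and for the BAT q-value only. ATAC tag counts per 150 bp peak were deposited by the authors, made with HOMER on mm10 per the file headers, with 1 peak set per depot. The deposited BMAL1 table gives the authors' HOMER peak score, per the file headers. The submitters' processing notes list RSEM 1.3.0, STAR 2.7.5, limma, DESeq2, HOMER and mm10, and Bowtie2 2.4.1 for the ChIP. Of the columns, 1 belonged to no listed sample and was not used.

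Counts were fitted with edgeR 4.0.16 in R 4.3.3 (TMM scaling, filterByExpr, quasi-likelihood F test, Benjamini-Hochberg adjustment over all features that passed the filter). Rhythm is a cosine and sine of a 24 h period tested together, with its size given peak to trough and the SE derived from F. Dark against light and BAT against WAT used time as a factor. A depot call needs an adjusted p under 0.05 and at least 2-fold. CPM is each count scaled to a common total after TMM, and correlations used log2(CPM + 1) with 100000 permutations. The named genes are all 10 members, the 3 largest called genes of each list and, for 4 members, the 5 genes with the highest Pearson r. Scripts were tested on simulated data. DESeq2 1.42.0, other scaling, other filters, left-out libraries and a replicate block were tried as alternatives. ATAC tags in peaks per library spanned 3959384 to 12811242 for BAT and 1623006 to 5294923 for WAT. Counting intervals and floors cover counting error only.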

Additional observations from a re-analysis of the deposited data

How the results depend on the processing

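With the replicate number as a block, which the labels do not tie to an animal or day, 0 members were called for BAT rhythm, 0 for BAT dark against light, 6 for BAT against WAT with Ryr1 and Trdn counted, 4 BAT ATAC peaks and 1 WAT ATAC peak. The median r of libraries with the same number and with other numbers was 0.076 and -0.043 in BAT RNA, 0.028 and -0.022 in WAT RNA, 0.0024 and -0.0055 in BAT ATAC, and 0.043 and -0.025 in WAT ATAC. Not every same-number pair correlated, with minima of -0.61, -0.47, -0.37 and -0.44, so the numbers were not taken to pair libraries. Libraries matched best with their own number in 9 of 17, 11 of 18, 8 of 18 and 10 of 18 cases, a hint from the data and not the design. Leaving out 1 library at a time, members called numbered 6 to 7 for the depot with Ryr1 and Trdn counted, 0 for both BAT time comparisons, 2 to 7 for BAT ATAC peaks and 0 to 1 for WAT ATAC peaks, and 8 in the BAT relation to the skeletal muscle list. Both depot counts hold Ryr1 and Trdn, which were chosen on high values in these WAT libraries, so nothing is drawn from them. In the main fit 47.3% of the 10999 genes tested were called for the depot.

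The Atp2a1 depot difference turned to -0.071 with DESeq2 size factors, -0.12 with DESeq2 and -0.17 with the block, and ran from -0.35 to 0.15 with 1 library left out; the cause was not tested. Dark minus light in BAT changed sign in the same way, with ranges of -0.48 to 0.86 for Acta1, -0.63 to 0.77 for Atp2a1, -0.0073 to 0.14 for Atp2a2, -0.58 to 0.95 for Ckm, -0.43 to 0.98 for Mylpf, -0.74 to 0.66 for Ryr1, -0.66 to 0.72 for Tnnt3, -0.62 to 0.69 for Trdn and -0.54 to 0.85 for Ttn. Counts over all features moved by more than 1.5 times without the filter on low counts and with DESeq2: 1754 and 2455 genes for BAT rhythm, against 1136, and 471 and 353 for BAT dark against light, against 161. For the depot, 11706 genes were called without the filter, against 5204. For WAT rhythm, 3046 genes were called without the filter, 2096 with DESeq2 and 2689 without the 3 libraries high in ribosomal loci, against 1257, with no member call in WAT drawn from these. Low WAT depth limits genes near 0.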
